A study of Sus scrofa with 10 samples.

Results

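The 5 control libraries of the series held nuclear RNA of sorted cardiomyocytes from the hearts of wild-type minipigs (Sus scrofa), and they are described here as the control state of these cells. They were taken by their titles, as the 5 of 10 libraries named Control, and per the labels the treatment was PBS (phosphate-buffered saline). The other 5 libraries came from animals given DOCA (deoxycorticosterone acetate), with or without JK07, and entered no value below. The labels do not state age, sex, heart chamber or the marker used for sorting, and the titles of all libraries carry the letters AF without an explanation. The labels numbered the libraries but did not say that each came from a different animal, so the spread between them may be technical.

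Nuclear RNA holds transcripts that are still being made, processed or retained, together with the small RNAs that splice and modify them. Cardiomyocytes devote much of their transcription to the sarcomere, which is built from thick filaments of myosin, thin filaments of actin with the troponins and tropomyosin, and the elastic protein titin. Many of these proteins exist as pairs of related genes of which one prevails in a given muscle or chamber. In adult hearts of large mammals the atria are known for the light chains MYL7 and MYL4 and the peptide hormone NPPA, and the ventricles for MYL2, MYL3 and MYH7.

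Levels are given as TPM, the StringTie estimate of transcript abundance per unit of length, rescaled to the same total in each library after the mitochondrial genome and the 2 unplaced scaffolds of ribosomal RNA were left out. Those scaffolds took 82.1% to 86.3% of the 55.8 to 106 M estimated counts of a library (M, mega), which left 8.67 to 13.9 M. Mitochondrial genes took 3.69% to 5.57% of the counts off those scaffolds. The smallest level above 0 was 2.03 to 3.31 TPM, so a gene listed at 0 lay under about that level and was not shown to be silent. A mean of at least 10 TPM was reached by 10430 of 35616 loci. On log2(TPM + 1) over these loci, library 2 had the lowest mean correlation with the others (0.840), and the other 4 had 0.865 to 0.890, across loci, which are not independent. Errors are SD over the 5 libraries unless stated.

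The loci with the highest TPM were small structural RNAs. Loci spanning under 500 bp took 45.5% ± 1.19 of all TPM (n = 5) but 5.30% ± 0.374 of the counts, because TPM divides by length. Of the 25 named loci with the highest mean TPM, 23 were such RNAs and 2 coded for protein, MYH6 and NPPA. The 7SL RNA of the signal recognition particle (named Metazoa_SRP in the files) summed to 125717, 155555, 155429, 146186 and 177533 TPM in libraries 1 to 5 over 17 loci. The RNA of RNase MRP, which cuts precursor ribosomal RNA, stood at 52018, 68425, 66504, 37189.8 and 97569 TPM and that of RNase P, which trims transfer RNA, at 33451, 32411, 37966, 27957 and 54132 TPM. Both were highest in library 5 and lowest in library 4.

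The spliceosomal RNAs differed among themselves in how even they were. U1, which recognises the 5′ splice site, summed to 103207, 92322, 97902, 90572 and 30946 TPM over 55 loci, with library 5 far below the other 4. U2, which binds the branch point, summed to 48721, 37268, 14443, 33803 and 22251 TPM over 104 loci and was lowest in library 3. The 876 U6 loci summed to 1827 ± 235 TPM and U4 to 276 ± 194 TPM. The RNAs of Cajal bodies (SCARNA, 13 loci), which guide the modification of spliceosomal RNAs, were even at 24613, 23036, 23214, 25738 and 22656 TPM. The nucleolar guide RNAs of the SNORA class summed to 13439 ± 4039 TPM and those of the SNORD class to 6701 ± 3006 TPM, both lower in libraries 3 and 5 than in the other 3. Many copies within the spliceosomal families are near-identical, so their levels are given as family sums. SCARNA, SNORA and SNORD are classes of different RNAs, summed here by name. The part that size selection of the libraries has in all these levels was not tested.

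Counted without regard to length, 1 unnamed locus led all others. ENSSSCG00000048856, a locus of 5662 bp on the minus strand of chromosome 2 (6751519 to 6757180, Sscrofa11.1), stood at 49746, 62819, 50278, 51695 and 37265 TPM and at 80369 CPM (counts scaled to the library's total, not per length). It lay 65787 bp from FRMD8 and overlapped the uncharacterised RefSeq gene LOC102163816. A second unnamed locus, nearer to FRMD8, ENSSSCG00000056754 (6804687 to 6811446), had 1585 ± 148 TPM, with library 3 highest. The files gave neither a name. Of 11 long noncoding RNAs sought by name, 2 could be matched, TUG1 at 34.1 ± 4.87 TPM and MEG3, which was listed at 0 in all 5 libraries.

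Among named genes spanning at least 500 bp, a selection made after the values were seen, the contractile apparatus and its hormone led. MYH6, the alpha myosin heavy chain (chromosome 7, 75676791 to 75704644), was first with 6096, 5026, 6612, 5857 and 5649 TPM in libraries 1 to 5, a mean of 5848 ± 583. NPPA, the precursor of atrial natriuretic peptide (chromosome 6, 71918845 to 71921405), followed with 4927, 3839.6, 4121, 4437 and 3461 TPM and MYL4, the atrial essential light chain (chromosome 12, 16775471 to 16792213), with 4149.9, 3398, 3978, 3744 and 3429 TPM. All 3 were even, with a CV (the SD over the mean) of 0.0997, 0.135 and 0.0885, and MYH6 was above NPPA and MYL4 without overlap. TNNT2, cardiac troponin T, had 3202, 3502, 4081, 3990.0 and 3384 TPM. NEBL, nebulette of the Z disc, had 1419, 5383, 2359.7, 3613 and 2056 TPM and was less even, being highest in library 2 and lowest in library 1. ACTC1, cardiac alpha actin, had 3909, 2463, 3023, 2675 and 2316 TPM.

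The next genes were the actin-severing protein GSN (2307 ± 646 TPM), troponin I of cardiac muscle TNNI3 (1837 ± 497 TPM), the translation factor EEF1A1 (1752 ± 286 TPM), the fibrillar collagen COL3A1 (1484 ± 983 TPM) and desmin, DES (1462 ± 183 TPM). They were followed by RABGAP1L, a regulator of membrane traffic (1247 ± 327 TPM), the glycolytic enzyme GAPDH (1185 ± 159.7 TPM), the calcium pump ATP2A2 (1099.5 ± 197 TPM), the RNA helicase DDX5 (1002 ± 99.1 TPM) and MYH7, the beta myosin heavy chain (991 ± 135 TPM). Of the 25 most abundant genes, 15 were also among the 25 of highest CPM. The highest CPM of a named gene was that of MYH6, and by CPM long genes such as RYR2, the calcium release channel (rank 9 against 88 by TPM), moved up. Neighbours in this order often did not differ beyond their spread: NPPA, MYL4 and TNNT2 had overlapping ranges, and so did NEBL and ACTC1.

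**Figure D1:**
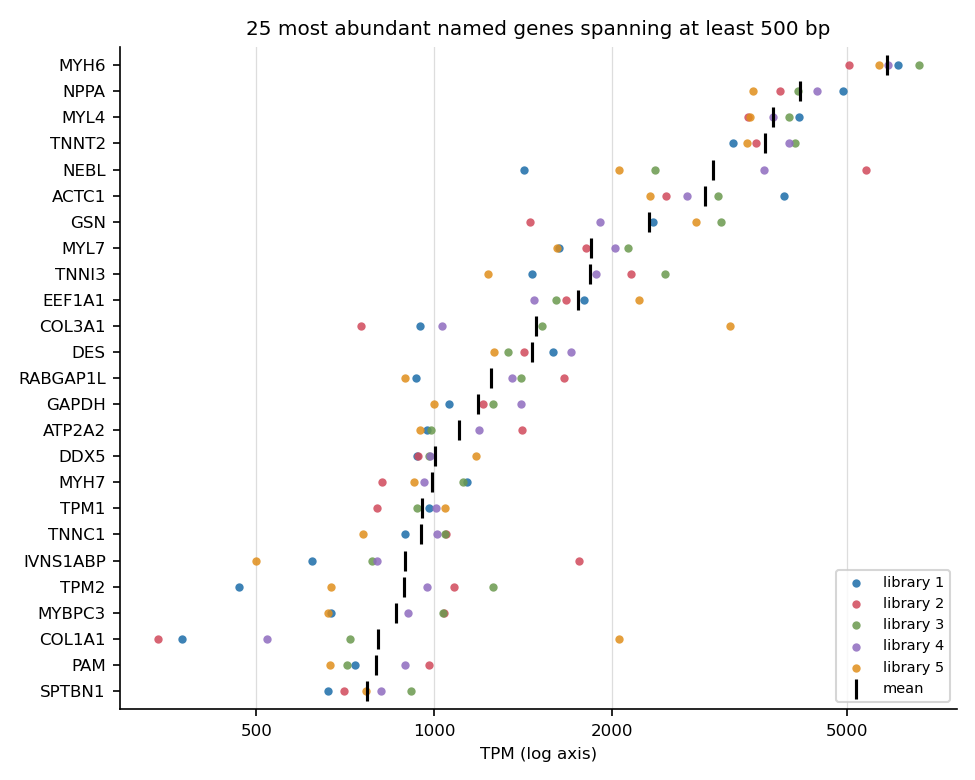
TPM on a log axis of the 25 most abundant named genes that span at least 500 bp, 1 point for each of the 5 control libraries and a bar for the mean. Points of MYH6, MYL4 and TNNT2 sit close together, while NEBL spreads from 1419 to 5383 TPM, COL1A1 from 341 to 2054 TPM and IVNS1ABP from 499.9 to 1757 TPM.

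Annotation shaped the place of a pair of the marker genes. MYL7, the atrial regulatory light chain (51026436 to 51028917 on chromosome 18 in RefSeq), had no identifier of its own. The identifier that holds it had 1624, 1803, 2131, 2024 and 1611 TPM, which are given here as MYL7; it also covers sequence outside MYL7, whose reads cannot be told apart. TTN, titin, had no identifier of its own name: 6 unnamed identifiers overlapped its RefSeq span (84226953 to 84501320 on chromosome 15), with means of 1098 to 2706 TPM. In each of the 6, library 2 was highest. The identifier with the most counts, at 1269, 1986, 1335, 1457 and 1141 TPM, stands for TTN below, and the 6 together took 13075 ± 2949 CPM. Also named by position, against RefSeq genes without regard to strand, were CD36, EEF1A1, JPH2, MEG3, MKI67, PER3, RBM24 and SCN4B.

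The chamber was read from markers, since the labels do not name it and the series title speaks of atrial remodeling. The atrial list of 20 genes summed to 18073, 15690.3, 18096, 17448 and 15262 TPM in libraries 1 to 5 and the ventricular list of 16 genes to 2056, 1982, 2313, 2352 and 1933 TPM, so the atrial sum was above the ventricular one in all 5. MYH6, NPPA, MYL4 and MYL7, with means of 5848, 4157, 3740 and 1839 TPM, made up most of the atrial sum (mean 16914 TPM). MYL2, the ventricular regulatory light chain, stood at 0, 13, 9.02, 25 and 9.84 TPM, with library 1 at 0 and library 4 highest, while MYL7 had 1611 to 2131 TPM. MYL3, the ventricular essential light chain, was present at 231, 269, 361, 236 and 249.7 TPM, well under MYL4. The ventricular transcription factors IRX4, HAND1 and PRDM16 were listed at 0 in all 5 libraries, and HEY2 had 6.62 ± 2.45 TPM.

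Among the further atrial genes, PAM, the enzyme that amidates peptide hormones and a major membrane protein of atrial granules, had 734, 981, 711, 890.3 and 665 TPM. KCNJ3, a subunit of the acetylcholine-gated potassium channel, had 88.7, 195, 182, 155 and 92.0 TPM and sarcolipin, SLN, which inhibits the calcium pump, 209, 139.7, 60.8, 88.6 and 131 TPM. The transcription factors TBX5 (74.1 ± 19.2 TPM) and NR2F2 (35.4 ± 7.33 TPM), the connexin GJA5 (37.2 ± 3.85 TPM) and the atrial potassium channels KCNK3 (50.3 ± 19.2 TPM) and KCNA5 (22.8 ± 6.10 TPM) were above 10 TPM, and 13 of the 20 list members were in all. The list was not met in full: BMP10, MYBPHL and PLA2G2A were listed at 0 in all 5 libraries. Of the 16 ventricular list members 11 also had a mean of at least 10 TPM, MYH7 (991 TPM) and CKM (196 TPM) among them. That level was reached by 8806 of 16410 longer named genes, and these counts do not tell the chambers apart. Of 13 pacemaker and conduction genes, ETV1 (40.2 ± 12.3 TPM), TBX18 (29.4 ± 9.87 TPM) and CPNE5 (16.2 ± 7.10 TPM) passed 10 TPM, ISL1 and CNTN2 were at 0 in all, and the pacemaker channel HCN4 had a mean of 0.620 TPM. TBX18 also belongs to the mesothelial and epicardial list.

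**Figure D2:**
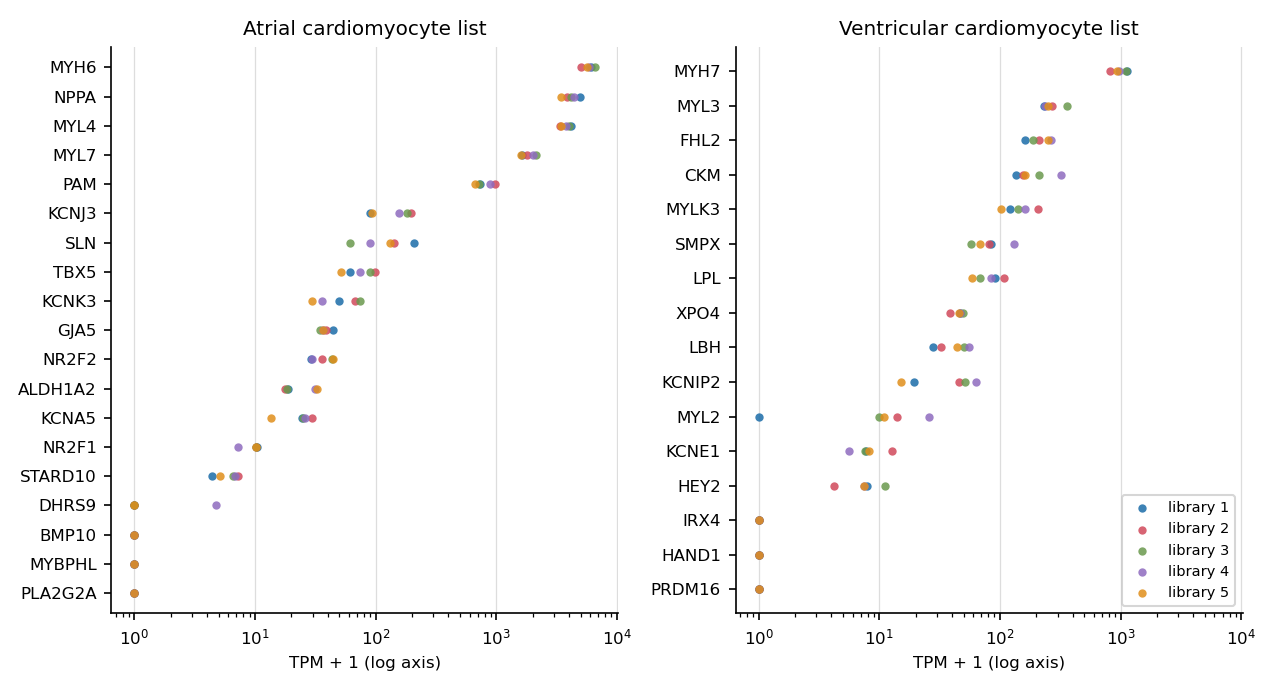
TPM + 1 on a log axis of members of the atrial list (left) and the ventricular list (right), 1 point per control library, with points of equal value drawn over each other. MYH6, NPPA, MYL4 and MYL7 lie at 1611 TPM or higher in every library, MYL2 lies at 25 TPM or lower, and the 3 lowest genes of each list are at 0 throughout.

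Related genes of 1 function were compared within each library, as 50 pairs fixed in a list, on the difference of log2(TPM + 1). In 45 pairs all 5 libraries lay on one side: the gene named first, chosen as the cardiac, atrial or oxidative form in most pairs, was higher in 38, and the other gene was higher in 7. With 5 libraries the exact two-sided sign-flip permutation test cannot give a p under 0.0625, so 0 of 50 pairs pass a threshold of 0.05 after Benjamini-Hochberg adjustment, and 45 pairs shared the smallest adjusted p of 0.0694. The pairs are therefore described by the size of the difference and by how many libraries shared its direction. Because the libraries are bulk, either gene of a pair may also be read from other cells.

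In the pairs of myosin chains the atrial form was higher in all 5 libraries. MYH6 exceeded MYH7, its neighbour on chromosome 7, by 2.57 ± 0.08 on the log2 scale (SD, n = 5), with a range of 2.42 to 2.62, and made up 85.5% ± 0.718 of the pair's TPM. Only GJA1/GJA5 had a smaller SD among the 50 pairs. MYL4 exceeded MYL3 by 3.81 ± 0.28. MYL7 exceeded MYL2 by 7.78 ± 1.69, with the values of MYL2 given above. NPPA exceeded NPPB, the B-type natriuretic peptide, by 4.63 ± 1.07, with NPPB at 437, 52.1, 268, 118 and 174 TPM, highest in library 1 and lowest in library 2. GJA1, the main connexin of working myocardium, exceeded the atrial connexin GJA5 by 2.66 ± 0.05, the narrowest spread of all 50 pairs. SLN lay under PLN, phospholamban, with a difference of -1.48 ± 0.52 (PLN at 446, 413, 209, 395 and 237 TPM).

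Cardiac forms stood over skeletal and embryonic forms. TNNI3 exceeded the slow skeletal and fetal TNNI1 by 6.67 ± 1.42, with TNNI1 at 27.0, 9.75, 5.96, 18.4 and 38.9 TPM. TNNT2 exceeded TNNT1 by 8.84 ± 0.75. The skeletal genes TNNC2, MYBPC1, ATP2A1, RYR1 and MYOZ1 were listed at 0 in all 5 libraries, while their cardiac partners TNNC1, MYBPC3, ATP2A2, RYR2 and MYOZ2 had means of 949, 860.4, 1099.5, 609 and 517 TPM. ACTC1 exceeded ACTA1, skeletal alpha actin, by 2.14 ± 0.50, and ACTA1 was abundant all the same at 955, 444, 899, 871 and 329.9 TPM. The tropomyosins TPM1 (981, 801, 935, 1008 and 1043 TPM) and TPM2 (468, 1081, 1255, 974 and 668 TPM) changed order between libraries, with TPM1 higher in libraries 1, 4 and 5 and TPM2 in 2 and 3. The junctophilins JPH2 and JPH1, which tie the surface membrane to the calcium store, also had no constant order (35.9 ± 4.47 and 37.3 ± 2.69 TPM).

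In energy metabolism the pairs went both ways. CPT1B, the muscle enzyme of fatty acid entry into mitochondria, exceeded CPT1A by 3.35 ± 1.2; library 5 had 45.1 TPM of CPT1A and the other 4 had 5.05 to 14.6. The heart and muscle subunit COX6A2 exceeded COX6A1 by 3.55 ± 0.51, and COX7A1 exceeded COX7A2 by 0.53 ± 0.51. On log2(CPM + 1), which is not per length, these differences were 1.90 and 2.68. CKM, muscle creatine kinase, exceeded CKB by 3.34 ± 0.66, and the insulin-responsive glucose transporter SLC2A4 exceeded SLC2A1 by 1.63 ± 0.31. The order was the other way for hexokinase, where HK1 had 78.7 ± 10.3 TPM and HK2 was listed at 0 in 3 libraries with a mean of 1.33, and for phosphoglycerate mutase, where PGAM1 (84.7 ± 5.40 TPM) exceeded the muscle form PGAM2 (37.8 ± 5.81 TPM). ENO3 and ENO1, and ACACB and ACACA, had no constant order.

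Lactate dehydrogenase shows how a symbol can point to 1 of several loci. The symbol LDHB belongs in the files to a locus of 1281 bp on chromosome 2 with 72.8, 123, 88.0, 132 and 131 TPM, whereas an unnamed locus of 20274 bp on chromosome 5 that RefSeq also calls LDHB had 359.6, 632, 384, 695 and 484 TPM. How reads that fit both were assigned is not given, so each level is uncertain. The shorter locus alone exceeded LDHA (24.5 ± 2.98 TPM) by 2.08 ± 0.43, and the longer one was above it in every library.

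Regulators of transcription and splicing had preferred forms too. GATA6 (194, 149, 184, 252 and 201 TPM) exceeded GATA4 (46.8, 46.4, 58.6, 48.7 and 56.8 TPM) in all 5 libraries, with a GATA4 minus GATA6 difference of -1.90 ± 0.30 (-1.03 on log2(CPM + 1)); both are zinc finger factors of cardiac genes. ESRRG minus ESRRA was -1.54 ± 0.70, with ESRRA higher, and these nuclear receptors drive mitochondrial genes. MEF2A exceeded MEF2C by 0.99 ± 0.16, PPARA exceeded PPARG by 3.73 ± 1.62, and PPARGC1A, the coactivator of mitochondrial biogenesis, exceeded PPARGC1B by 3.68 ± 0.71. PPARGC1A itself was uneven, at 531, 191, 158, 151 and 205 TPM, with library 1 far above the other 4. Of the splicing regulators, RBFOX2 (111 ± 15.4 TPM) exceeded RBFOX1 (38.6 ± 17.6 TPM), MBNL1 (109 ± 9.07 TPM) exceeded MBNL2 (35.4 ± 7.38 TPM), and RBM24 (171 ± 43.0 TPM) exceeded RBM20 (64.3 ± 7.52 TPM), the factor that controls titin splicing. The last difference was -1.37 ± 0.38 on log2(TPM + 1), and on log2(CPM + 1), which is not per length, it turned to 0.26.

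**Figure D3:**
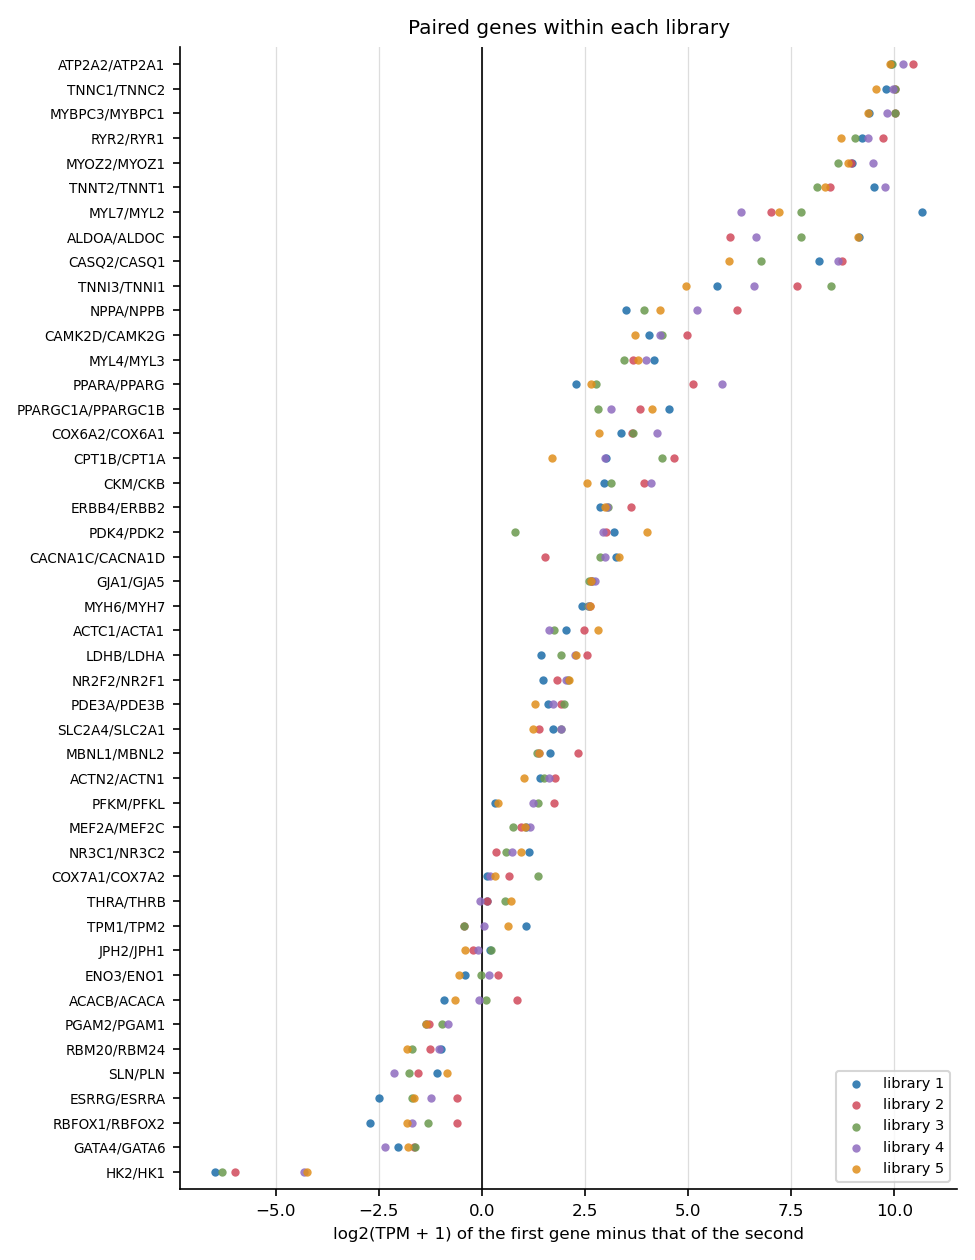
Difference of log2(TPM + 1) between the first and the second gene of 46 pairs, 1 point per control library, ordered by the mean, with a line at 0. In 34 pairs all points lie right of the line, in 7 all lie left, and in 5 (THRA/THRB, TPM1/TPM2, JPH2/JPH1, ENO3/ENO1 and ACACB/ACACA) they lie on both sides.

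Beyond the pairs, the lists of cardiac function differed in how many members reached 10 TPM, a level that 8806 of 16410 longer named genes reached. Of 19 genes of titin and the Z disc, all 19 had a mean of at least 10 TPM, led by DES, TTN, ANKRD1 (720.3 ± 451 TPM) and the LIM protein CSRP3 (678 ± 270.1 TPM). Of 24 genes of calcium cycling 22 did, led by ATP2A2, RYR2 (592, 852, 526, 655 and 418 TPM), the kinase CAMK2D (453 ± 134 TPM) and the store protein CASQ2 (361 ± 53.1 TPM). Of 31 genes of the action potential 18 did, among them the sodium-calcium exchanger SLC8A1 (247 ± 41.3 TPM), GJA1 (241 ± 26.9 TPM) and KCNJ3. KCND2 and SCN4B were listed at 0 in all 5 libraries. Of 15 genes of the intercalated disc 14 passed, led by GJA1, vinculin VCL (199.9 ± 22.0 TPM), the cadherin CDH2 (128 ± 41.6 TPM) and XIRP1 (243, 25.9, 82.9, 82.9 and 196 TPM), and the last varied widely between libraries.

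Most nuclear genes of energy supply reached 10 TPM. Of 43 measured genes of oxidative phosphorylation 42 had at least 10 TPM, with a median level of 69.2 TPM, led by COX4I1 of cytochrome c oxidase (469 ± 78.8 TPM) and NDUFA4 of the same complex (212 ± 47.6 TPM). All 22 genes of the tricarboxylic acid cycle passed, led by the malate dehydrogenases MDH2 (252 ± 25 TPM) and MDH1 (184 ± 32.1 TPM). Of 25 genes of fatty acid uptake and oxidation 23 passed, with the uncoupling protein UCP3 at 0 in all 5 libraries; the list was led by the fatty acid transporter CD36 (184 ± 45.1 TPM) and the trifunctional protein subunit HADHB (163 ± 32.4 TPM). Of 23 genes of glycolysis 21 passed, led by GAPDH, ALDOA (607 ± 59.1 TPM) and GPI (229 ± 39.2 TPM). All 34 cytosolic ribosomal protein genes passed, with a median of 138 TPM, and their levels are uncertain because of near-identical copies elsewhere in the genome.

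Receptors that the study's agents act on were measured in these libraries. The libraries are bulk and hold RNA of other cells, so the levels in this paragraph and the next cannot be assigned to cardiomyocytes alone. The same holds for the chamber markers, pairs and lists above. The series title calls JK07 an agonist of ERBB4. ERBB4, the neuregulin receptor of cardiomyocytes (chromosome 15, 113974437 to 115096565), had 125, 261, 199, 197 and 149.8 TPM and exceeded its partner ERBB2 (16.2, 20.5, 23.0, 23.0 and 17.9 TPM) by 3.12 ± 0.28, with library 2 the highest for ERBB4. EGFR had 37.0 ± 12.5 TPM and ERBB3 7.11 ± 3.41 TPM. Of the ligands, NRG1 had 22.0, 4.89, 18.3, 13.2 and 14 TPM and NRG4 8.13 ± 0.674 TPM, while NRG2, NRG3, BTC, EREG, TGFA and AREG were listed at 0 in all 5 libraries. NR3C1, the glucocorticoid receptor (66.2 ± 11.2 TPM), exceeded NR3C2, the mineralocorticoid receptor on which DOCA acts (38.8 ± 7.33 TPM), by 0.75 ± 0.31. HSD11B2, the enzyme that shields that receptor from cortisol in the kidney, had a mean of 1.94 TPM, and HSD11B1, which regenerates cortisol, had 21.8 ± 3.47 TPM. The corticosteroid targets ZBTB16 (228 ± 54.8 TPM), FKBP5 (182, 211, 106, 236 and 326 TPM) and PER1 (179.8 ± 35.2 TPM) were expressed in every control library.

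Of 16 autonomic, angiotensin and endothelin receptors 8 had at least 10 TPM. They were led by CHRM2, the muscarinic receptor of the vagal response (41.3, 106, 51.5, 68.7 and 42.4 TPM), the endothelin receptor EDNRA (43.6 ± 16.8 TPM), the beta adrenoceptor ADRB1 (34.5 ± 9.09 TPM) and the natriuretic peptide receptor NPR1 (22.8 ± 7.62 TPM). ADRB3 and AGTR2 were listed at 0 throughout, and AGTR1 had 6.29 ± 1.72 TPM. For cardiac transcription factors, 22 of 30 passed 10 TPM, led by PPARGC1A, GATA6, TBX20 (114 ± 18.4 TPM) and MEF2A (100.1 ± 16.5 TPM).

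The labelled cell type was checked against markers of cardiomyocytes and of the other cells of the heart. Of 20 pan-cardiomyocyte genes 19 had at least 10 TPM, with FGF12 listed at 0. That level was reached by 8806 of 16410 longer named genes and by 19 of 20 endothelial genes, so this count does not mark the cell type. The pan-cardiomyocyte list summed to 16204, 21764, 18449.5, 19692 and 14730.4 TPM in libraries 1 to 5. RNA of other cells was present as well. In bulk libraries, fewer cells of a type and less RNA per cell cannot be told apart, and a sum of markers is not a share of cells. The 18 fibroblast genes summed to 5490.2, 3907, 7411, 5176 and 11052 TPM, which was 38.7% ± 22.0 of the cardiomyocyte sum (n = 5) and ran from 18% in library 2 to 75% in library 5. Without library 5 the mean was 29.6%. Of the 15 members at 10 TPM or more, 8 were highest in library 5, 4 in library 3, 2 in library 4 and 1 in library 1. COL1A1 and COL3A1, at 2054 and 3168 TPM in library 5, made up much of the sum there. GSN and COL3A1 led that list, and GSN is also expressed by cardiomyocytes. DCN, a proteoglycan typical of fibroblasts, had 407, 219.7, 328, 243 and 536 TPM and PDGFRA, their receptor tyrosine kinase, 104, 42.5, 92.5, 58.2 and 86.2 TPM.

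The other lists were lower. Endothelial genes summed to 6.47% ± 2.75 of the cardiomyocyte sum, with 19 of 20 at 10 TPM or more, led by PECAM1 (207, 107, 149, 179 and 282 TPM). Smooth muscle and pericyte genes summed to 3.34% ± 0.858, led by TAGLN (172, 52.4, 77.2, 42.0 and 145 TPM) and ABCC9, a potassium channel subunit that cardiomyocytes also carry (84.3 ± 23.7 TPM). Macrophage and monocyte genes summed to 3.01% ± 1.83, led by the scavenger receptor CD163 (209, 54.4, 38.6, 172 and 231 TPM), and LYZ and MARCO were at 0. Mesothelial genes summed to 0.857% ± 0.628 and adipocyte genes to 1.13% ± 0.181, the latter led by LPL, which cardiomyocytes express (80.6 ± 19.2 TPM), with ADIPOQ, LEP and PCK1 at 0. Erythrocyte genes, almost all HBB (170.5, 214, 42.8, 24.6 and 122 TPM), summed to 0.663% ± 0.453.

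Lymphocyte and nerve markers were near the floor. Lymphocyte genes summed to 0.106% ± 0.0511 of the cardiomyocyte sum, with CD3E, CD3D, CD4, MS4A1, CD79A, CD79B, GZMB and THEMIS at 0 in all 5 libraries. Schwann cell and neuron genes summed to 0.0786% ± 0.0421, with TUBB3, RBFOX3 and SNAP25 among those at 0 in all. The skeletal muscle list summed to 5.32% ± 1.76, led by ACTA1 and CKM, which the heart also expresses, and 9 of its 18 genes were at 0 throughout. Libraries 2 and 5 stood at opposite ends. The cardiomyocyte sum was highest in library 2 and lowest in library 5, while the fibroblast, endothelial and macrophage sums were lowest in library 2 and highest in library 5. The endothelial members did not all follow their sum. Of the 19 at 10 TPM or more, 10 were highest in library 1, 7 in library 5, 1 in library 3 and 1 in library 4. The CV of the sums was 0.153 for cardiomyocyte, 0.421 for fibroblast, 0.289 for endothelial and 0.476 for macrophage genes. What part the sort has in this was not tested.

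Variation between the 5 libraries was measured for each locus with a mean of at least 10 TPM as the CV, the SD divided by the mean. The median CV over 10430 loci was 0.225, with quartiles of 0.156 and 0.325. A CV above 0.5, called variable here, was found for 780 loci, or 7.48%, and a CV under 0.1, called stable, for 754 loci, or 7.23%. The CV that counting alone would give had a median of 0.0522, and 155 loci had a CV under their own counting value. Of 505 loci spanning under 500 bp 205 were variable, against 406 of 8806 longer named genes and 169 of 1119 longer loci without a name. Leaving out library 2 lowered the number of variable loci to 606 and raised that of stable ones to 1596; without library 1 the stable ones were 1151.

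**Figure D4:**
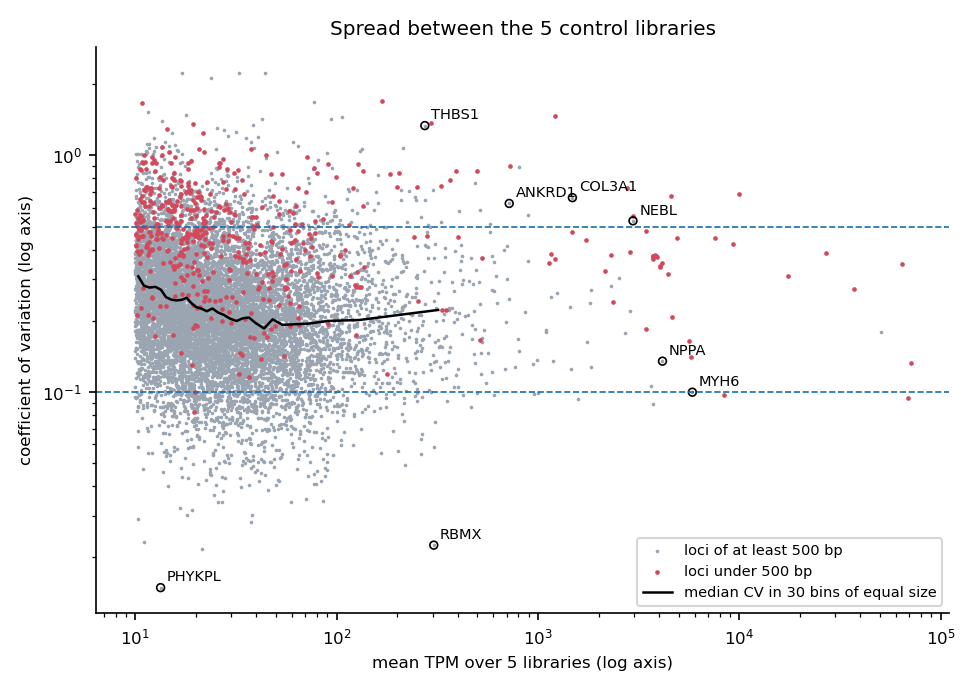
CV over the 5 control libraries against mean TPM, both on log axes, for 10430 loci with a mean of at least 10 TPM, with short loci in red, the median in bins as a black line and dashed lines at 0.5 and 0.1. NPPA and MYH6 lie under the median line at 0.135 and 0.0997, COL3A1, ANKRD1 and THBS1 above 0.5, and RBMX and PHYKPL at the bottom.

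The 15 named genes of lowest CV held no sarcomere gene. With 8806 longer named genes at a mean of at least 10 TPM, this says little about sarcomere genes as a set. PHYKPL, a lysine-catabolic enzyme, had 13.2, 13.2, 13.5, 13.3 and 13.7 TPM and the lowest CV of named genes, 0.0149, followed by the myosin motor of vesicle transport MYO5A (22.2, 21.3, 21.7, 20.9 and 21.7 TPM). Both lay under their counting CV of 0.0866 and 0.0356, which was computed from estimated counts. They were picked for a low CV, and 155 of 10430 loci lay under their counting value. Evenness beyond counting is therefore not shown. RBMX, an RNA-binding protein of splicing, was even at a far higher level, 316, 301, 302, 302 and 298 TPM, with a CV of 0.0225 against 0.0174 from counting. The other 12 of the 15 lowest were MRPS24, PPIG, PAPOLG, MIER1, NRIP1, TTI2, B3GALNT2, ADD3, DCBLD2, ATR, RB1CC1 and KIF13A, with CVs of 0.0233 to 0.0352. Of these, MRPS24, PPIG, PAPOLG, MIER1, NRIP1, TTI2 and B3GALNT2 also lay under their counting CV.

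The lists differed in their median CV, beside 0.225 over all loci, and counts of stable members are to be read beside the 7.23% of all loci. Longer named genes had a median CV of 0.213. Loci with a mean of 50 to 200 TPM had a median CV of 0.196, and 9.84% of them were stable. The median was 0.136 for the thick filament (3 of 11 stable) and 0.132 for the tricarboxylic acid cycle, where 6 of 22 were stable and 1, the pyruvate dehydrogenase kinase PDK4 (104, 137, 29.9, 117 and 200.1 TPM), was variable. It was 0.138 for chromatin and nuclear speckle genes (HNRNPU, CHD2 and SON stable), 0.154 for glycolysis (5 of 21 stable), 0.162 for oxidative phosphorylation (5 of 42 stable), 0.184 for splicing regulators (3 of 18 stable), 0.199 for fatty acid uptake and oxidation (0 of 23 stable) and 0.301 for creatine kinase and myoglobin (0 of 7 stable). In oxidative phosphorylation NDUFS4 was the variable member, at 67.1, 48.3, 32.9, 127 and 35.8 TPM, and none was without library 4. PDK4 was not variable without library 3 or without library 5. Of the thick filament genes MYH6, MYL4 and MYOM1 were stable and MYL2 variable, and of the thin filament genes TPM1 and the actin-capping TMOD1 were stable and NEBL and TNNI1 variable. No thick filament gene was variable without library 4, and 1 thin filament gene was without library 1 or library 2.

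Variable genes were not shared evenly among the libraries. Of the 780 variable loci 230 were highest in library 5, 211 in library 2, 166 in library 1, 123 in library 4 and 50 in library 3. Over all 10430 loci the highest library was 5 for 23.2%, 2 for 15.7%, 1 for 21.0%, 4 for 21.6% and 3 for 18.5%, so library 2 held more of the variable loci, and library 3 fewer, than of all loci; no test was made of that.

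Of the 15 named loci with the highest CV, 7 were highest in library 2, among them RND1, VCAM1, ICAM1, CXCL2 and TNFAIP2. VCAM1, an adhesion molecule of activated endothelium, had 19.2, 312, 17.2, 19.2 and 20.2 TPM in libraries 1 to 5 and ICAM1, its partner in leukocyte binding, 44.0, 384, 34.4, 28.8 and 41.5 TPM. The chemokines CXCL2 (64.5, 332, 37.0, 22.0 and 14.2 TPM) and CCL2 (106, 385, 96.1, 24.7 and 60.3 TPM), the NF-kB targets TNFAIP2 (17.3, 151, 21.1, 11.6 and 11.5 TPM) and TNFAIP3 (27.7, 128, 18.4, 17.3 and 13.2 TPM) and the small GTPase RND1 (0, 114, 5.27, 0 and 0 TPM) were likewise highest in library 2 and clear of the other 4. The same library had the lowest sums of endothelial and macrophage genes. It also had the lowest level of ANKRD1, a stretch-responsive Z disc protein, at 1332, 89.1, 674, 616 and 890.5 TPM (not variable without library 2), of CSRP3 at 1015, 305, 530.2, 790.2 and 748 TPM, and of XIRP1 and NPPB. NEBL was highest there, and so was IVNS1ABP, an actin-binding protein, at 619.8, 1757, 784, 800.5 and 499.9 TPM.

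Library 1 had the highest sum of immediate early genes, which are switched on within minutes by growth factors or stress. Of 30 measured genes of immediate early response and tissue dissociation, all at 10 TPM or more, 14 were variable, against 7.48% of all loci, and without library 1 the number was 10. NR4A3, an orphan nuclear receptor, had 604, 22.3, 168, 67.7 and 208 TPM, the stress factor ATF3 366, 28.9, 71.9, 129 and 207 TPM, and the zinc finger factor EGR1 623, 424, 130.2, 151 and 181 TPM, which was high in libraries 1 and 2. The list summed to 5803, 2876, 2743, 2543 and 3575 TPM. THBS1, a matricellular glycoprotein, had 924, 91.4, 62.5, 95.5 and 199 TPM and the aggrecanase ADAMTS4 89.8, 14.5, 7.01, 6.87 and 26.6 TPM, both highest in library 1. CCN2, connective tissue growth factor, was high in libraries 1 and 5 (309.9, 85.5, 137, 135 and 476 TPM), and JUNB in library 2 (112, 198, 70.5, 70.9 and 70.2 TPM).

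Library 4 had the highest sums of mesothelial and of interferon response genes. The keratins KRT8 (6.65, 9.46, 20.5, 129 and 25.4 TPM) and KRT19 (4.35, 13.7, 25, 109.6 and 25.8 TPM) and the mesothelial membrane protein UPK3B (7.60, 13.9, 20.7, 57.3 and 25 TPM) were each highest there, and the mesothelial list summed to 75.9, 68.4, 127, 376 and 133 TPM. KRT18 and CALB2 of the same list were at 0 in all libraries. Of 19 interferon response genes at 10 TPM or more 8 were variable, against 7.48% of all loci, and 7 of these were highest in library 4; without library 4 the number was 3. IFI6, an interferon-induced membrane protein, had 29.1, 59.4, 69.7, 253 and 39.4 TPM, the antiviral GTPase MX1 26.5, 15.2, 27.2, 56.4 and 20.9 TPM and IFI44 14.7, 12.7, 18.5, 52.8 and 13.1 TPM. The other variable gene, IRF1, a transcription factor of the interferon response, was highest in library 2 at 69.7, 187, 89.8, 76.1 and 32.0 TPM.

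Library 5 had the highest sums of matrix, fibroblast, macrophage and cell cycle genes. COL1A1 had 374, 341, 720.3, 520.3 and 2054 TPM, COL1A2 301, 259, 437, 299 and 1139 TPM and COL3A1 946, 752, 1521, 1032 and 3168 TPM, with library 5 above the other 4 in each. Of 23 extracellular matrix genes 8 were variable, against 7.48% of all loci, including FN1, fibronectin (142, 66.1, 153, 82.2 and 341 TPM), SPARC (272, 203, 424, 326 and 804 TPM) and COL6A3 (405, 110.2, 337, 234 and 569 TPM), and without library 5 the number was 0. Of 15 fibroblast genes at 10 TPM or more 5 were variable, beside the same 7.48%, and without library 5 also 0. FBN2, a fibrillin of growing tissue, had 15.1, 12.4, 11.2, 8.73 and 91.2 TPM. Of 13 macrophage genes 8 were variable, beside the same 7.48%, with C1QC at 34.8, 18.6, 38.7, 37.0 and 98.7 TPM and CSF1R at 39.6, 21.7, 42.0, 51.7 and 95.6 TPM, and the number was 3 without library 5 and 4 without library 2. The 12 cell cycle genes were all under 10 TPM on average; the proliferation marker MKI67 had 3.41, 0, 2.22, 3.77 and 15.4 TPM. The fibroblast and matrix lists share members, COL1A1, COL1A2 and COL3A1 among them, and C1QC and CSF1R belong to the macrophage list. That the sums moved with these genes is therefore partly fixed by the lists. The part of fibroblasts and macrophages in these levels was not tested.

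**Figure D5:**
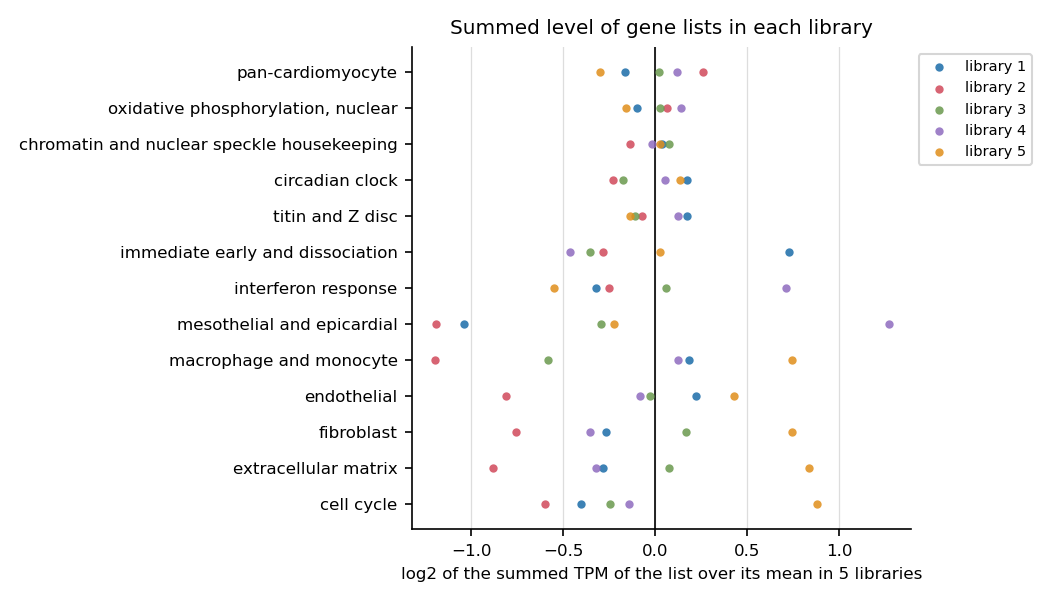
Summed TPM of 13 gene lists in each control library, as log2 of the sum over its mean in the 5 libraries, so that 0 is the mean. The oxidative phosphorylation and chromatin lists stay close to 0, library 1 is highest for immediate early genes, library 4 for interferon and mesothelial genes, and library 5 for matrix, fibroblast, macrophage and cell cycle genes, with library 2 lowest for the last 4.

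Of 16 clock genes at 10 TPM or more 3 were variable, against 7.48% of all loci. PER3 had 19, 25.4, 29.2, 87.1 and 73.3 TPM and NR1D1, a repressor of BMAL1, 4.81, 6.76, 9.41, 13.3 and 18.5 TPM, both higher in libraries 4 and 5. BMAL1, the activator of the clock, had 40.1, 13.5, 36.6, 12.2 and 21.9 TPM, higher in libraries 1 and 3. NR1D2 was stable at 41.0, 41.0, 35.7, 42.4 and 44.2 TPM, and without library 4 only 1 of the list was variable. The labels do not state when hearts were taken. Further variable genes of cardiac function were the potassium channel subunit KCNIP2 (18.5, 44.9, 50.7, 62.8 and 14.1 TPM), triadin, TRDN (26.6, 86.6, 32.5, 104 and 58.2 TPM), ESRRG (4.69, 26.4, 14, 11.9 and 7.19 TPM) and the creatine transporter SLC6A8 (63.2, 12.9, 42.0, 28.9 and 29.7 TPM). Some of these calls rest on 1 library. No action potential gene was variable without library 1 or without library 5, no calcium cycling gene without library 1 or without library 3, and no creatine kinase and myoglobin gene without library 1 or without library 2. Of the cardiac transcription factors 2 were variable, and 1 without library 1 or without library 2.

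Several of the 15 named loci with the highest CV overlap or adjoin other loci, are short or have similar copies. What part this has in their CV was not tested. Both loci called ssc-mir-1285 (CV 1.69 and 1.46) overlap 7SL loci on chromosome 1, so their reads cannot be told apart from 7SL RNA. IL25, a cytokine gene with 42.3, 0, 11.0, 4.89 and 0 TPM, spans 75709995 to 75714355 on chromosome 7, next to MYH6, which ends at 75704644. SNORD18 (47.2, 10.6, 8.13, 0 and 6.25 TPM) is a locus of 70 bp. CCL4 (37.8, 96.6, 23.3, 0 and 0 TPM) and CYP2B6B, a xenobiotic-oxidising cytochrome P450 (0, 2.24, 0, 22.5 and 42.9 TPM), complete the 15 and belong to families with similar copies.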

How the data were processed

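Nuclear RNA of sorted cardiomyocytes was sequenced, with 5 control libraries used out of 10. Per the file headers and the submitters' processing notes, the authors deposited StringTie gene abundance tables on Sscrofa11.1 with TPM per gene, and a table of estimated counts for the whole series. SAMtools and edgeR are also named there; versions, aligner and strand setting are not given in the sources used here. The count table has no gene column: its rows were matched to sorted gene identifiers, where zeros coincided for at least 99.997% of rows in each library, against at most 62.8% with rows shifted. Coverage, the depth per base that the authors' tables also give, was used for that match and for the TMM and DESeq2 alternatives below. The 5 count columns of treated libraries were not used.

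From the authors' TPM, 37 mitochondrial identifiers and 17 on 2 ribosomal RNA scaffolds were left out of 35670, and the rest rescaled to the same total. Symbols came from the files (17640) and a name table (119). Of 681 listed symbols 656 were matched, 30 by position. CPM was computed from the deposited estimated counts for alternatives. The pairs were tested by an exact sign-flip permutation test with Benjamini-Hochberg adjustment (SciPy 1.17.1), on log2(TPM + 1). The CV had no test. The CV and sign-flip code was tested on simulated data. Alternatives used CPM, TMM (edgeR 4.0.16), DESeq2 1.42.0 size factors, dispersions, other filters and 4 of 5 libraries. Depth limits low genes; no interval was computed from estimated counts.

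The members and lists were chosen with earlier results of these data known. The text names the label's markers, the 25 loci of highest TPM, the 15 of highest and 15 of lowest CV, the 4 most abundant and all variable or stable members of lists, the pairs, and members of other cell type lists above 10 TPM or at 0 throughout, of which examples are printed. The 500 bp limit, and other genes named outside this rule, were chosen after their values were seen. Some members are not reported here by name; counts and sums include them.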

Additional observations from a re-analysis of the deposited data

Results flagged for a closer look

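In each of 179 sets of 5 control values that were looked at, the highest or lowest library was compared with the rest, as its gap to the nearest library divided by the whole range. A gap above Dixon's critical value of 0.71 set a library far from the others, and chance does so in about 1 of 20 groups that were not chosen by their values. Sets taken for a high CV or a low CV over the same 5 values were chosen in this way, so 1 of 20 is not their rate and the total below is not a measure of excess. This happened in 30 sets, with library 5 apart in 11, library 2 in 9, library 1 in 6, library 4 in 4 and library 3 in 0. Loci of 1 family and lists that share genes are not independent.

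Library 2 stood apart upward for the adhesion molecules VCAM1 (gap 0.99, 312 TPM against at most 20.2) and ICAM1 (0.957), the GTPase RND1 (0.954, 114 TPM against at most 5.27), the NF-kB target TNFAIP2 (0.931), the chemokine CXCL2 (0.842), an ssc-mir-1285 locus (0.846) and IVNS1ABP (0.761). The ERBB4/ERBB2 difference was also highest there, with a gap of 0.744 and a value of 3.61 against at most 3.06 on the log2 scale. The difference between the calcium channel genes CACNA1C and CACNA1D was lowest there, with a gap of 0.744 and a value of 1.53 against at least 2.86.

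Library 5 stood apart downward for 7 U1 loci, with gaps of 0.728, 0.76, 0.758, 0.735, 0.741, 0.744 and 0.76; these are near-identical copies whose reads cannot be told apart, so they count as 1 observation. It stood apart upward for the fibrillin FBN2 (0.923), the RNA helicase DDX5 (0.806), the collagen COL1A1 (0.779) and the summed cell cycle list (0.791, 90.4 TPM against at most 44.6).

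Library 1 stood apart upward for THBS1 (0.842), ADAMTS4 (0.763), IL25 (0.739), SNORD18 (0.775), and for RBMX (0.777) and B3GALNT2 (0.84), both among the genes of lowest CV, where the gap is wide only against a narrow range. Library 4 stood apart upward for KRT8 (0.847), the summed mesothelial list (0.788, 376 TPM against at most 133) and SCARNA13 (0.71), and downward for MIER1 (0.823).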

How the results depend on the processing

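No pairing of libraries was possible because the 5 libraries form a single group. The gene pairs were compared within each library. The number of loci with a mean of at least 10 TPM (10430) ran from 10299 to 11404 over the alternatives, and 45 pairs lay on one side (45 to 46 over the alternatives). The 780 variable loci became 4798 of 17202 at a mean of at least 1 TPM and 142 of 2141 at 50 TPM, where other loci were tested. With 4 libraries they ran from 606 to 982. With coverage scaled by TMM or DESeq2 factors they were 820 and 841, and by edgeR's tagwise dispersion 1169 loci were above 0.5. The 754 stable loci became 209 at 50 TPM and 0 by edgeR's tagwise dispersion, and with 4 libraries they ran from 908 to 1596 (1151 without library 1). The dispersion is shrunk toward a trend and is not the same quantity as the CV. The MYL7/MYL2 difference (7.78) ran from 7.06 to 8.16 with CPM or 4 libraries and was 8.53 with a pseudocount of 0.1, which bears on MYL2 at 0 in library 1, and the fibroblast sum (38.7% of the cardiomyocyte sum) from 29.6% without library 5 to 48.4% on CPM. On log2(CPM + 1) the direction turned for THRA/THRB (-0.0205) and RBM20/RBM24 (0.260); 19 more of the 46 pairs named here moved by over 1 SD without turning, among them COX7A1/COX7A2 (0.53 to 2.68), COX6A2/COX6A1 (3.55 to 1.90), GATA4/GATA6 (-1.90 to -1.03) and TPM1/TPM2 (0.18 to 1.12). CPM is not per length. Among pairs without a constant order, leaving out 1 library gave -0.0414 (without library 1) to 0.333 for TPM1/TPM2, -0.388 to 0.0563 (without library 1) for ACACB/ACACA, -0.131 to 0.0295 (without library 5) for JPH2/JPH1 and -0.208 to 0.0295 (without library 5) for ENO3/ENO1, and the cause was not tested. Of the 25 named loci of highest TPM 7 were among the 25 of highest CPM, and 7 when loci under 300 bp were left out. The limits are those of 1 group of 5 libraries with most counts on ribosomal RNA, levels that hold length and annotation, and a floor that lists low genes at 0.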

Other observations

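Genes of protein breakdown in muscle were present in every library. All 7 measured genes of the muscle ubiquitin ligase list had at least 10 TPM, led by TRIM55 (157, 273, 258, 239 and 215 TPM in libraries 1 to 5), TRIM63, which marks myosin for degradation (289, 192, 202, 158 and 224 TPM), FBXO32 (182, 254, 277, 132 and 100.1 TPM) and KLHL41 (119 ± 41.2 TPM). Their sum had a CV of 0.0973, their median CV was 0.228 beside 0.225 over all loci, and none of the 7 was variable. Of the genes that process natriuretic peptides, the protease CORIN, which cleaves the precursor of NPPA, had 64.1, 176, 159, 137 and 119.8 TPM, FURIN had 40.7 ± 5.68 TPM and the clearance receptor NPR3 had 44.4 ± 13.7 TPM, while the degrading enzyme MME was listed at 0 in all 5 libraries. The adenine nucleotide carrier SLC25A4 had 424, 424, 395, 407 and 313 TPM and the mitochondrial creatine kinase CKMT2 had 36.2 ± 5.36 TPM.

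The labels give no sex. The Y-linked genes KDM5D (31.0, 31.8, 36.4, 48.0 and 44.6 TPM), ZFY (33.8, 38.5, 30.6, 32.4 and 28.4 TPM) and EIF1AY (17.7, 21.5, 16.2, 30.6 and 20.4 TPM) were above 10 TPM in every library. No X-inactivation transcript was matched by name, and 5 of the 10 sex-linked genes of the list were measured.

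The endocardial list summed to 209, 171, 214, 269 and 364 TPM and its CDH11 (66.1, 31.4, 59.9, 72.5 and 149 TPM) and PLVAP (33.4, 15.2, 27.6, 31.6 and 76.0 TPM) were highest in library 5. An unnamed locus of 75 bp on chromosome X (22067693 to 22067767) had 15674, 9623, 19238, 24346 and 18764 TPM, rank 7 of all loci by TPM and rank 125 by CPM.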
